A study of Homo sapiens with 4 samples.

Results

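The 8 human genes of the cyclin-dependent kinase (CDK) inhibitor families were examined before and after chemotherapy in BT-16 and CHLA-266, a pair of cell lines of the AT/RT-MYC type. They were taken by gene symbol as the 3 Cip/Kip genes (*CDKN1A*, *CDKN1B*, *CDKN1C*), the 4 INK4 genes (*CDKN2A*, *CDKN2B*, *CDKN2C*, *CDKN2D*), and *CDKN3*, and all 8 were among the 18449 genes of the count table. No measured value entered this rule, but earlier results of these data were known when the genes were chosen. Both cell lines come from atypical teratoid/rhabdoid tumors (AT/RT), malignant brain tumors of infancy, and were grown in the same medium with fetal bovine serum. Untreated cells received no drug. Treated cells received 1 µM doxorubicin (doxo), 5 µM etoposide (eto), and 1 µM vincristine (vin) one after the other over consecutive days, after which most cells died and the survivors regrew over several weeks. Doxo and eto trap topoisomerase II on DNA and vin blocks microtubules. Bulk RNA was sequenced once per line and condition, so that 4 libraries were made and the lines stood as the 2 replicates of each condition.

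CDK inhibitors are the brakes of the cell cycle. INK4 proteins (p16INK4A, p15INK4B, p18INK4C, p19INK4D) bind CDK4 and CDK6 and keep them from D-type cyclins, whereas Cip/Kip proteins (p21CIP1, p27KIP1, p57KIP2) bind cyclin-CDK complexes and mainly block CDK2 with cyclins E and A. In both cases the RB protein stays unphosphorylated, E2F factors stay bound, and the cell rests in G1. *CDKN3* encodes a phosphatase that removes the activating phosphate of CDK2 and CDK1. Its transcript is made mostly in dividing cells. In rhabdoid tumors, loss of the chromatin remodeler SMARCB1 is known to go along with low *CDKN2A* and *CDKN1A* expression.

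The windows before the start sites of the genes with the clearest changes are shown here because they differ in the short motifs they hold. RefSeq windows of GRCh38.p14 matched 7 of the 8 genes (10 start sites), and *CDKN1C* had no entry. The 220 bases from position -250 to position -31 before each start were searched on both strands. The letters searched were CCAAT for the CCAAT box, and TTTGAA and also TTCGAA for the CHR (cell cycle genes homology region). They were GGGCGG for the GC box, CACGTG for the E-box, and TATAAA for the TATA box. The E2F motif was searched as TTTCGCGC, as TTTGGCGC, as TTTCCCGC, and as TTTGCCGC. Capitals mark the matches, and each sequence is written 5′ to 3′ on the strand of its gene, for *CDKN1A* (chr6:36678464-36678683, + strand), *CDKN2B* (chr9:22009336-22009555, - strand), the start of *CDKN2A* used by p16INK4A (chr9:21974888-21975107, - strand), and *CDKN3* (chr14:54396757-54396976, + strand).
CDKN1A: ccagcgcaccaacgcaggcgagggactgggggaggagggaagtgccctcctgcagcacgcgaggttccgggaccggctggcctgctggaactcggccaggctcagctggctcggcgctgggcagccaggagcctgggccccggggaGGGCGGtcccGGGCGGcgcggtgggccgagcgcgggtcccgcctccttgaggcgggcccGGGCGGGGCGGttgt
CDKN2B: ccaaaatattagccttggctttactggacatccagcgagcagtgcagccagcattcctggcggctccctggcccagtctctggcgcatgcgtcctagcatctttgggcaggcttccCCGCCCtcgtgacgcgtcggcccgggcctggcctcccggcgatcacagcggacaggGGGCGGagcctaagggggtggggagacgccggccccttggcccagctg
CDKN2A: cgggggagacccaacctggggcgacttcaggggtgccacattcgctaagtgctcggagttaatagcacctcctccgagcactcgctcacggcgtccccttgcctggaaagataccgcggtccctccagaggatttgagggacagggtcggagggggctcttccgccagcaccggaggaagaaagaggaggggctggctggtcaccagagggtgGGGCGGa
CDKN3: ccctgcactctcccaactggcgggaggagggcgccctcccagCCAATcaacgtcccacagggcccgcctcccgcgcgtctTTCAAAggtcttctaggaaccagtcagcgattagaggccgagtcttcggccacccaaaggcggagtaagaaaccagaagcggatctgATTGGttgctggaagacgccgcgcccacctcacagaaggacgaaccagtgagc

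The *CDKN1A* window held 4 GC boxes, of which the last pair, at positions -45 and -40, overlap by 1 base. *CDKN2B* held 2 GC boxes, the one at position -134 on the opposite strand, and this start of *CDKN2A* held 1. Among the windows not shown, those of *CDKN2C*, which fell after treatment, held 0, 5, and 1 GC boxes. The other start of *CDKN2A* held 0, *CDKN1B* held 1, and *CDKN2D* held 2. By comparison, 38.9% of all 35116 RefSeq windows held a GC box, so this motif was common. *CDKN3* held a CCAAT box at position -208 and, read on the opposite strand, a CCAAT box at position -83 and a CHR at position -170. It was the only window of these genes with a CHR, a motif at which the DREAM and MuvB complexes bind cell cycle genes. A CHR was found in 13.0% and a CHR together with a CCAAT box in 4.31% of all windows. Among the 14 proliferation genes with a window, 4 held both in 1 window. This is a count of genes, which can have several windows, and is not on the scale of the shares of windows. No E2F motif or TATA box was matched in any of the 10 windows, against 2.47% and 8.08% of all windows. A match of letters is a description and not a bound site.

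Library totals were between 49849258 and 75087194 counts, and in each cell line the treated one was smaller. The quasi-likelihood test of edgeR, after TMM normalization and with the condition as the only term, compared treated with untreated libraries, and adjusted *p* values (Benjamini-Hochberg) were taken over all 18066 genes with a nonzero total. An adjusted *p* value under 0.05 made a gene a DEG. Levels are given as CPM, the counts of a gene per 1000000 counts of its library after TMM scaling, and a log2 fold change is treated over untreated. The median log2 fold change of all genes was 0.24 with TMM and reached 0.59 with upper-quartile normalization, so that each log2 fold change is to be read against this shift. With 2 libraries against 2, the smallest two-sided *p* of an exact permutation test is 0.333, and the calls rest on a spread estimated across genes. Nothing in the labels says that the libraries stand for separate cultures beyond the cell lines, so *p* values measure the spread between these libraries. In bulk RNA, fewer cells of a kind and less RNA per cell cannot be told apart.

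Of the 8 CDK inhibitor genes, 2 were upregulated after treatment (*CDKN1A*, *CDKN2B*), 4 were downregulated (*CDKN1B*, *CDKN2A*, *CDKN2C*, *CDKN3*), and 2 did not pass the test (*CDKN1C*, *CDKN2D*). In the same comparison, 35.2% of all genes tested were DEG, 16.1% higher and 19.1% lower. Treated and untreated CPM did not overlap for any of the 8 genes, as for 72.6% of all genes, so the lack of overlap is no result about these genes. Their median log2 fold change was 0.12. INK4 held a gene that rose and genes that fell in edgeR and in all 9 alternative fits. In Cip/Kip, the gene that fell was *CDKN1B* alone, whose call was lost in 7 of the 9 alternative fits. The calls of *CDKN1A*, *CDKN2A*, *CDKN2B*, *CDKN2C*, and *CDKN3* were made in each of the 9 alternative fits and also when any 1 of the 4 libraries was dropped.

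**Figure D1:**
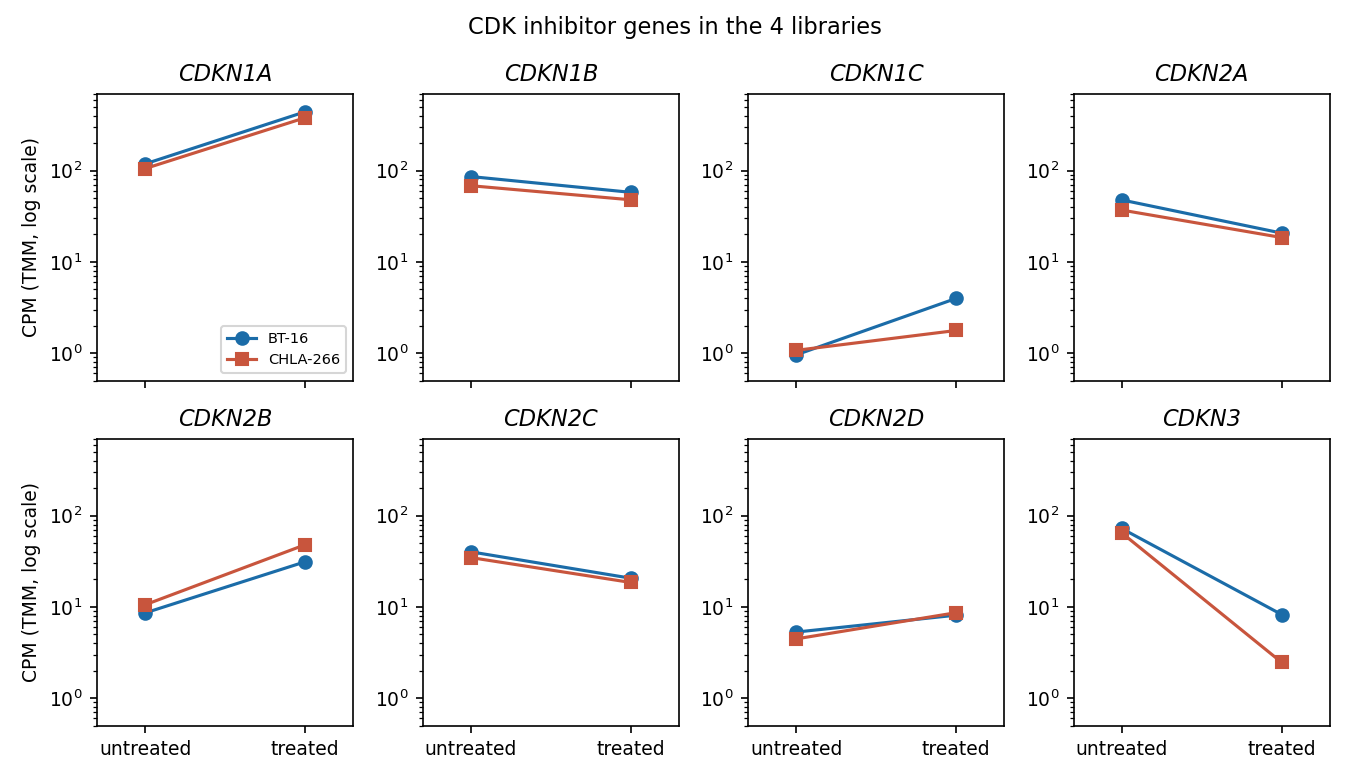
CPM after TMM scaling (log scale) of the 8 CDK inhibitor genes in untreated and treated cells, with circles for BT-16 and squares for CHLA-266, each point 1 library and each line 1 cell line. *CDKN1A* and *CDKN2B* lie higher and *CDKN3* far lower after treatment in both cell lines, and *CDKN1C*, which did not pass the test, lies at 0.957 and 3.98 CPM in BT-16 and at 1.07 and 1.77 CPM in CHLA-266.

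*CDKN1A* encodes p21CIP1, the inhibitor best known for the arrest of the cell cycle after DNA damage. BT-16 held 8181 of its counts before and 25541 after treatment, while CHLA-266 held 6485 before and 19760 after. Both treated libraries were far above both untreated ones. Mean CPM was 112.0 ± 9.37 (SD, n = 2) before and 411.0 ± 43.5 (SD, n = 2) after treatment. The log2 fold change was 1.88 (standard error, SE, 0.17, edgeR adjusted *p* = 0.000136), a 3.67-fold higher level. Within the cell lines, the log2 ratio of treated to untreated was 1.90 in BT-16 (95% interval 1.86 to 1.93) and 1.85 in CHLA-266 (1.81 to 1.89). These Clopper-Pearson intervals hold counting error alone. They would be too tight if a read pair counted as 2, and with halved counts the intervals of the cell lines overlapped. *CDKN1A* lies on chromosome 6 (36676460 to 36687337, + strand, hg38) and overlaps the antisense long noncoding RNA gene *DINOL*, which is not among the genes analysed here. The library kit keeps the strand, but the strand setting of the counting was not given in the sources used here.

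*CDKN1B* encodes p27KIP1, the inhibitor that builds up in resting cells and is held down mainly by protein turnover. BT-16 held 5938 of its counts before and 3342 after treatment, while CHLA-266 held 4206 before and 2488 after. Its transcript was lower after treatment in both cell lines, by a modest amount. Mean CPM went from 77.2 ± 12.6 to 52.8 ± 7.02 (SD, n = 2 each), with a log2 fold change of -0.55 (SE 0.18, edgeR adjusted *p* = 0.0461). This call was just past the threshold and passed in only 2 of 9 alternative fits, with adjusted *p* values from 0.00461 (with the cell line as a block) to 0.408 (upper-quartile normalization). It was also lost without the treated CHLA-266 library (log2 fold change -0.40, edgeR adjusted *p* = 0.173) and without the untreated BT-16 library (-0.37, adjusted *p* = 0.248). The gene on the opposite strand that overlaps it on chromosome 12, *GPR19*, had at most 70 counts in any library.

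*CDKN1C* encodes p57KIP2 and is imprinted, with expression mainly from the maternal copy. BT-16 held 66 of its counts before and 230 after treatment, while CHLA-266 held 66 before and 92 after. Both untreated libraries held the same count, and treated BT-16 stood apart from the other 3 libraries. The log2 fold change was 1.50 (SE 0.59, edgeR adjusted *p* = 0.0766), which did not pass the test. Without the treated CHLA-266 library it was 1.98 (edgeR adjusted *p* = 0.0325) and passed, whereas without the treated BT-16 library it was 0.80 (adjusted *p* = 0.514). The fits without an untreated library did not pass, and 3 of 9 alternative fits with all libraries did. The log2 ratio was 2.05 in BT-16 (95% interval 1.66 to 2.47) and 0.72 in CHLA-266 (0.25 to 1.20). With halved counts, these intervals did not overlap, but they hold no spread between cultures, and with 1 library per line and condition the lines' responses could not be tested against each other. At such low counts the reads that fall on silent genes are of interest. Over 380 olfactory receptor genes, which are silent outside the nose, the 95th percentile of counts per kilobase of exon was 4.11 before and 26.3 after treatment in BT-16, and 3.81 before and 21.2 after in CHLA-266. *CDKN1C* itself had 26.6 counts per kilobase before and 92.7 after treatment in BT-16, and 26.6 before and 37.1 after in CHLA-266, above that percentile in all 4 libraries. The part of such reads in its values was not tested.

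*CDKN2A* encodes p16INK4A and, from another first exon and reading frame, p14ARF, which is not itself a CDK inhibitor. The table has 1 count for both. BT-16 held 3293 of its counts before and 1194 after treatment, while CHLA-266 held 2275 before and 960 after. Both treated libraries were below both untreated ones by a similar factor. Mean CPM fell from 42.3 ± 7.62 to 19.6 ± 1.54 (SD, n = 2 each), and the log2 fold change was -1.11 (SE 0.20, edgeR adjusted *p* = 0.00410). The 95% interval of the log2 ratio was -1.31 to -1.11 in BT-16 and -1.11 to -0.89 in CHLA-266.

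*CDKN2B* encodes p15INK4B, the INK4 inhibitor best known as a target of TGF-β. BT-16 held 594 of its counts before and 1810 after treatment, while CHLA-266 held 651 before and 2502 after. Both treated libraries were above both untreated ones, and treated CHLA-266 was the highest. Mean CPM rose from 9.59 ± 1.39 to 39.7 ± 11.9 (SD, n = 2 each), with a log2 fold change of 2.05 (SE 0.26, edgeR adjusted *p* = 0.000707), a 4.14-fold higher level. BT-16 showed a log2 ratio of 1.86 and CHLA-266 one of 2.19, and the halved-count intervals overlapped. The order of *CDKN2B* and *CDKN1A* by fold change depended on the library, since without treated CHLA-266 the log2 fold change was 1.72 for *CDKN2B* and 1.99 for *CDKN1A*.

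*CDKN2A* and *CDKN2B* are neighbors on chromosome 9, both on the - strand and 7602 bases apart (21967752 to 21995301 and 22002903 to 22009305, hg38), and they moved in opposite directions in both cell lines. On the other side of *CDKN2A*, *MTAP*, a gene of methionine salvage that is often lost together with *CDKN2A* in tumors, went from 3951 to 1440 counts with treatment in BT-16, and from 4375 to 1854 in CHLA-266. *MTAP* fell like *CDKN2A* (log2 fold change -1.08, standard error 0.22, edgeR adjusted *p* = 0.00635). Reads of all 3 genes were found in all 4 libraries. On the other side of *CDKN2B*, *DMRTA1* had no count in both untreated libraries and 44 and 48 counts in treated BT-16 and CHLA-266 cells (edgeR adjusted *p* = 0.00927). Per kilobase of exon these were 7.88 and 8.59 counts, under the 95th percentile of the olfactory receptor genes in the same libraries, and the part of such reads was not tested. *CDKN2A* and *CDKN2B* share similar exon sequence and both overlap the antisense gene *CDKN2B-AS1*, which is not among the genes analysed here, so that reads could have been split between them.

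**Figure D2:**
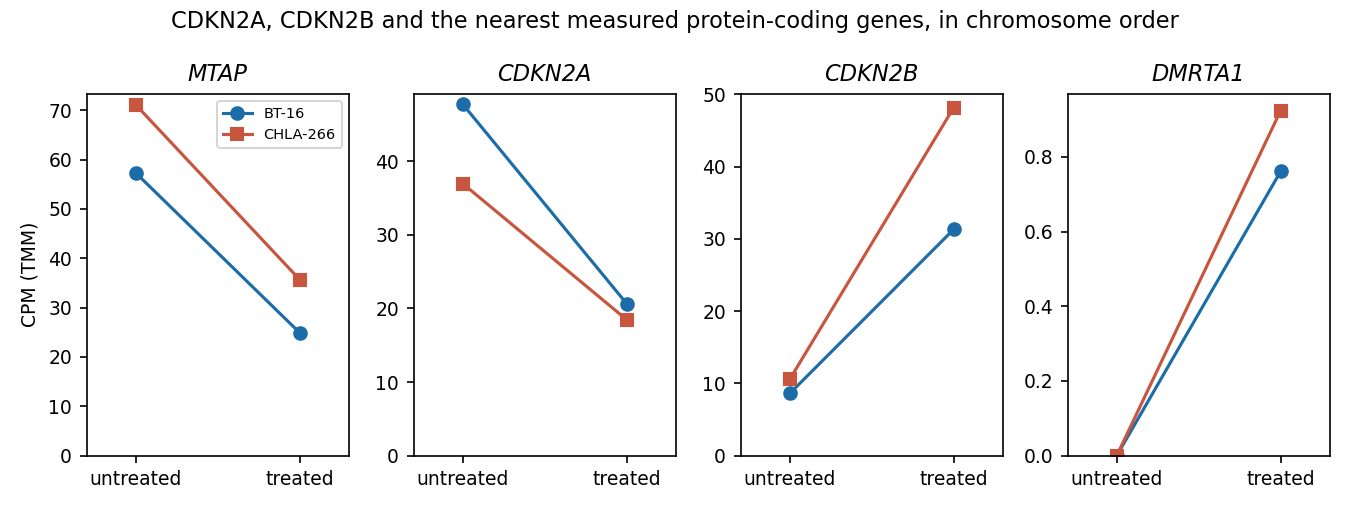
CPM after TMM scaling of *MTAP*, *CDKN2A*, *CDKN2B*, and *DMRTA1*, in their order along chromosome 9, in untreated and treated BT-16 (circles) and CHLA-266 cells (squares), each point 1 library. Each panel has its own axis from 0, since the levels differ, and *CDKN2A* and *MTAP* go down in both cell lines while *CDKN2B* goes up from 8.61 to 31.3 CPM in BT-16 and from 10.6 to 48.1 CPM in CHLA-266.

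*CDKN2C* encodes p18INK4C, which is made in cycling cells as an E2F target. BT-16 held 2775 of its counts before and 1194 after treatment, while CHLA-266 held 2141 before and 964 after. Its pattern followed that of *CDKN2A*, and these were the closest pair of all members over the 4 libraries (Euclidean distance 0.20 between centered log2 CPM). Mean CPM fell from 37.5 ± 3.85 to 19.6 ± 1.49 (SD, n = 2 each), with a log2 fold change of -0.94 (SE 0.19, edgeR adjusted *p* = 0.00686). *CDKN2D* encodes p19INK4D. BT-16 held 366 of its counts before and 470 after treatment, while CHLA-266 held 275 before and 450 after. Its CPM was above the untreated level in both treated libraries. The log2 fold change of 0.78 (SE 0.31, edgeR adjusted *p* = 0.0821) did not pass the test, but 6 of 9 alternative fits passed, among them the one with the cell line as a block (edgeR adjusted *p* = 0.0444), in which 41.6% of all genes tested were DEG. DESeq2 with the same block did not pass (adjusted *p* = 0.0970), and neither did any of the 4 fits without 1 library (adjusted *p* from 0.123 to 0.249).

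*CDKN3* showed the largest change of all members. BT-16 held 4996 of its counts before and 477 after treatment, while CHLA-266 held 3995 before and 128 after. Both treated libraries were far below both untreated ones, and treated CHLA-266 was the lowest. Mean CPM fell from 68.7 ± 5.32 to 5.36 ± 4.09 (SD, n = 2 each), with a log2 fold change of -3.68 (SE 0.47, edgeR adjusted *p* = 0.000768), a 12.8-fold lower level. The log2 ratio was -3.13 in BT-16 (95% interval -3.27 to -3.00) and -4.71 in CHLA-266 (-4.99 to -4.47), an 8.77-fold and a 26.2-fold lower level, and the intervals did not overlap with halved counts either. *CDKN3* fell in the same range as the genes of dividing cells. All 17 proliferation genes were downregulated, with a median log2 fold change of -3.53 against 0.24 for all genes. *MKI67*, a marker of dividing cells, went from 109853 to 1262 counts with treatment in BT-16, and from 96814 to 1386 in CHLA-266 (log2 fold change -6.03, edgeR adjusted *p* = 1.92e-06).

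**Figure D3:**
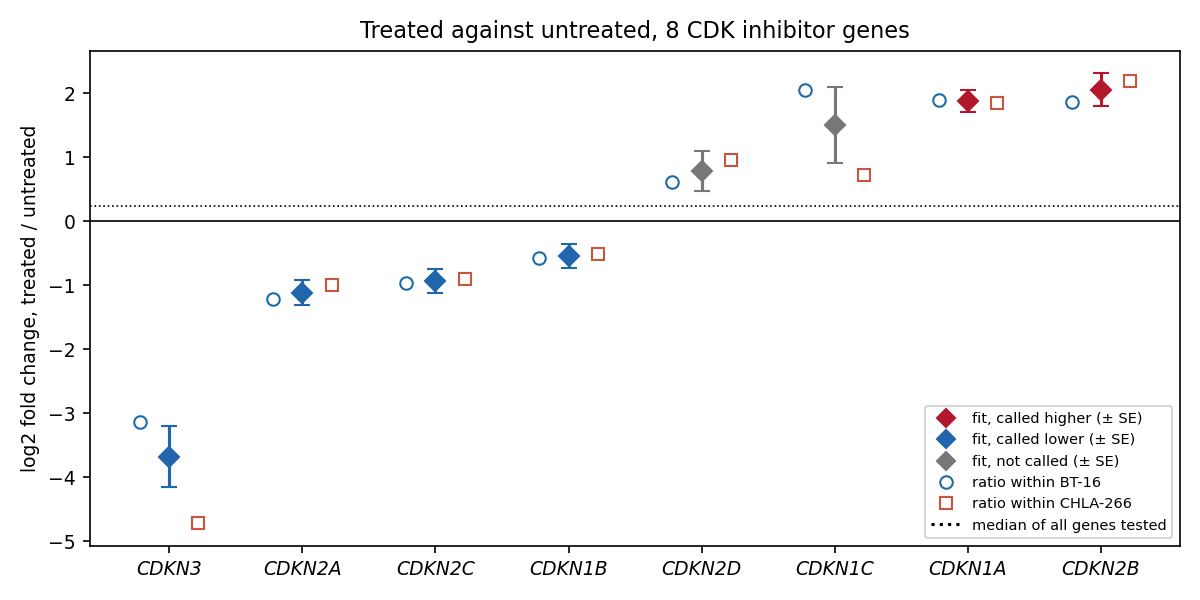
Log2 fold change of treated over untreated for the 8 CDK inhibitor genes, sorted. Diamonds give the edgeR fit with its standard error (red called higher, blue called lower, gray not called), circles and squares give the ratio within BT-16 and CHLA-266, and the dotted line is the median of all genes (0.24). The cell lines lie close together for *CDKN1A*, *CDKN1B*, and *CDKN2C* and apart for *CDKN1C* and *CDKN3*.

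Between the cell lines, with the condition in the model, *CDKN3* was the 1 member that passed the test, with a lower level in CHLA-266 than in BT-16 (log2 fold change -0.87, standard error 0.23, edgeR adjusted *p* = 0.0403). In this comparison 2.3% of all genes passed, 1.46% with a lower and 0.836% with a higher level in CHLA-266. The value rests on the treated libraries, since the log2 difference was -1.74 between the treated libraries and -0.13 between the untreated ones. It was past the threshold in 3 of 6 alternative fits and not in DESeq2 (adjusted *p* = 0.236). The other 7 members had log2 fold changes between -0.51 (*CDKN1C*) and 0.46 (*CDKN2B*), and none of them passed in edgeR or in any of the 6 alternative fits. *CDKN2B* was higher in CHLA-266 by 0.46 on the log2 scale (edgeR adjusted *p* = 0.346).

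Levels of different genes were compared as CPM per kilobase of merged exons (GENCODE 44). Before treatment, *CDKN3* (39.6 for BT-16, 35.5 for CHLA-266) and *CDKN1A* (39.6 and 35.2) came first with overlapping ranges, followed by *CDKN2C* (13.3 and 11.5) and *CDKN2A* (12.3 and 9.51), which also overlapped. *CDKN1B* (9.30 and 7.38), *CDKN2D* (3.53 and 2.97), *CDKN2B* (2.15 and 2.64), and *CDKN1C* (0.386 and 0.432) followed with separate ranges. After treatment, *CDKN1A* stood far above all others, at 147.5 (BT-16) and 126.9 (CHLA-266) CPM per kilobase of exon. *CDKN2B* was next (7.83 and 12.0). *CDKN2C* (6.84 and 6.15), *CDKN1B* (6.25 and 5.17), *CDKN2D* (5.40 and 5.75), and *CDKN2A* (5.32 and 4.76) lay close together, with the ranges of *CDKN2C* and *CDKN1B*, *CDKN1B* and *CDKN2D*, and *CDKN1B* and *CDKN2A* overlapping. *CDKN3* (4.51 and 1.35) and *CDKN1C* (1.60 and 0.714) came last, and their ranges overlapped. With the length of the canonical transcript, which is much shorter than the merged exons for *CDKN1B*, *CDKN2A*, *CDKN2C*, and *CDKN3*, the order changed. Before treatment, *CDKN3* (86.1 and 77.2) then stood above *CDKN1A* (56.0 and 49.8), and *CDKN2A* (48.8 and 37.8) came before *CDKN2C* (40.43 and 34.95) with overlapping ranges. *CDKN1B* (35.7 and 28.3) came next, and its range overlapped that of *CDKN2C*. After treatment, *CDKN1A* was still first (208.7 and 179.6). *CDKN1B* (24.0 and 19.9), *CDKN2A* (21.1 and 18.9), and *CDKN2C* (20.8 and 18.6) followed with overlapping ranges, ahead of *CDKN2B* (8.13 and 12.5). The range of *CDKN3* (9.81 and 2.93) then overlapped that of *CDKN2B*.

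Summed over the 7 Cip/Kip and INK4 genes, the level per kilobase of merged exons was 80.6 CPM per kilobase before and 180.7 after treatment in BT-16, and 69.6 before and 161.5 after in CHLA-266. This increase was close to that of *CDKN1A* alone, which went from 39.6 to 147.5 and from 35.2 to 126.9. Its share was 49.1% before and 81.6% after treatment in BT-16, and 50.5% before and 78.6% after in CHLA-266. With canonical lengths the share went from 29.9% to 71.8% and from 31.6% to 70.0%. Within the INK4 family, the share of *CDKN2A* was lower and that of *CDKN2B* higher after treatment with both lengths, but which of them was ahead after treatment depended on the length. With merged exons, the share of *CDKN2A* went from 39.3% to 20.9% in BT-16 and from 35.7% to 16.6% in CHLA-266, and that of *CDKN2B* from 6.88% to 30.8% and from 9.92% to 42.0%. With canonical lengths *CDKN2A* stayed ahead, with 51.3% before and 37.9% after treatment in BT-16, and 48.1% before and 33.7% after in CHLA-266. *CDKN2B* then went from 2.35% to 14.6% and from 3.49% to 22.3%. These shares were not tested.

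**Figure D4:**
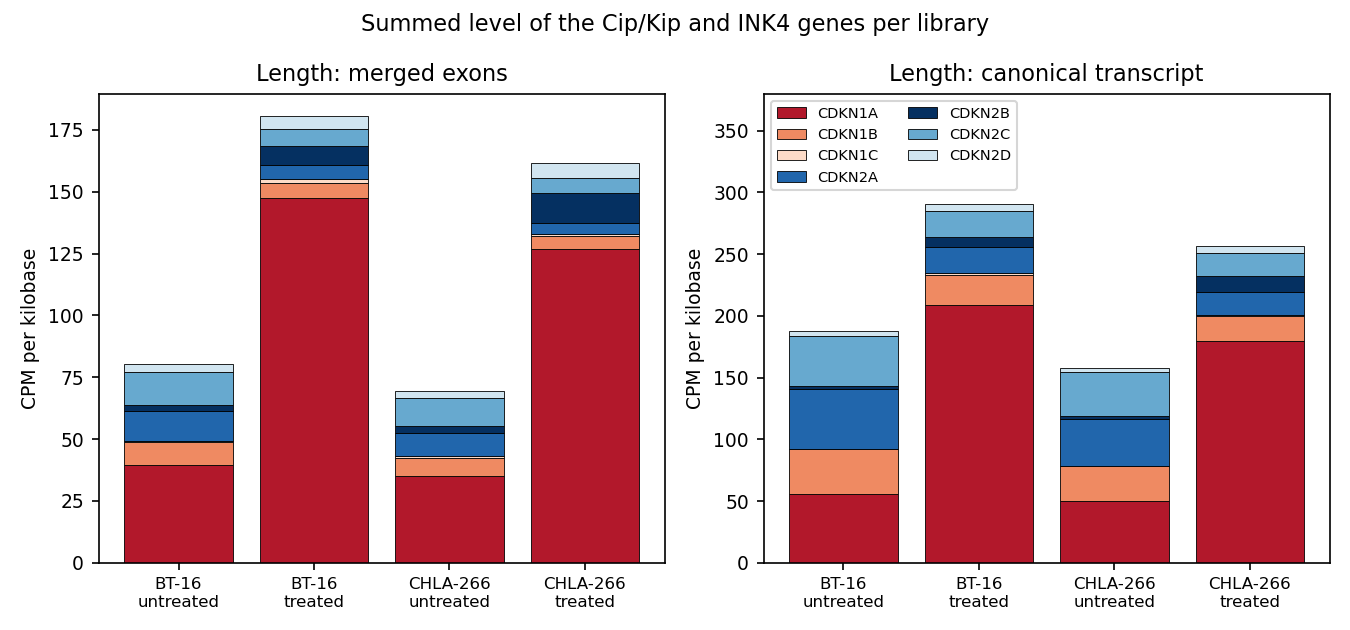
Level in CPM per kilobase of the 3 Cip/Kip genes (red shades) and the 4 INK4 genes (blue shades), stacked for each of the 4 libraries, with lengths of merged exons (left) and of the canonical transcript (right). *CDKN1A*, at the base, grows from 49.1% to 81.6% of the stack in BT-16 and from 50.5% to 78.6% in CHLA-266 with merged exons.

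The targets of the INK4 proteins moved in different directions. Of 5 genes, 2 rose and 1 fell, with a median log2 fold change of -0.37. *CCND1*, a D-type cyclin, went from 8479 to 12374 counts with treatment in BT-16, and from 8235 to 17885 in CHLA-266 (log2 fold change 1.12, edgeR adjusted *p* = 0.00698), and *CCND2* rose from 4 and 4 counts to 66 and 114 counts (adjusted *p* = 0.00545). Per kilobase of exon, *CCND2* had 8.26 and 14.3 counts after treatment, under the 95th percentile of the olfactory receptor genes in both treated libraries, and the part of such reads was not tested. A minimum of 10 counts throughout leaves *CCND2* out, and 1 of 4 INK4 targets then rose, as did 1 of 5 without the treated CHLA-266 library. *CDK6* fell (log2 fold change -0.91, edgeR adjusted *p* = 0.00327), whereas *CDK4* (-0.37, adjusted *p* = 0.152) and *CCND3* (-0.52, adjusted *p* = 0.103) did not pass. With the block of cell lines, *CCND3* passed (lower). The summed INK4 level over that of *CDK4* and *CDK6*, per kilobase of merged exons, was 0.408 before and 0.531 after treatment in BT-16, and 0.436 before and 0.603 after in CHLA-266. With canonical lengths this ratio went the other way, from 0.848 to 0.776 and from 0.899 to 0.790, so no direction can be given.

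The targets of the Cip/Kip proteins mostly fell. Of 5 genes, 4 were downregulated, with a median log2 fold change of -3.30, and *CCNA1*, at 8 to 46 counts, did not pass. *CDK2*, the kinase that p21CIP1 and p27KIP1 block, had 2132 counts before and 90 after treatment in BT-16, and 1613 before and 124 after in CHLA-266 (log2 fold change -3.86, edgeR adjusted *p* = 4.82e-05). *CCNE1* (log2 fold change -1.51), *CCNE2* (-3.30), and *CCNA2* (-5.20) fell as well. The summed Cip/Kip level per kilobase was 6.20 times that of *CDK2* before and 388 times after treatment in BT-16, and 6.38 times before and 216 times after in CHLA-266. With canonical lengths it was 6.69 and 338 times, and 6.73 and 188 times. All 4 mitotic genes fell, among them *CDK1* (log2 fold change -5.31, edgeR adjusted *p* = 1.92e-06), the substrate of the *CDKN3* phosphatase next to CDK2. Of 8 genes of the CDK-activating kinase and the CDC25 and inhibitory kinase group, 4 fell, led by *CDC25C* (-4.80), *CDC25A* (-3.89), and *PKMYT1* (-3.91), and 2 rose.

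Downstream of the inhibitors, 9 of 13 RB family and E2F genes were downregulated (6 to 10 over the alternative fits, here with those that left out a library, median log2 fold change -0.73). *E2F8*, a repressor E2F, fell most (-4.20, edgeR adjusted *p* = 3.34e-05). *RBL1*, which encodes p107 (-2.46, adjusted *p* = 4.84e-05), and *TFDP1*, a partner of the E2F factors (-2.09), fell too. *TFDP2*, of the same list, did not pass (0.04, edgeR adjusted *p* = 0.851). *RB1* itself was lower by a small amount (-0.49, adjusted *p* = 0.0391). Of 9 genes of the DREAM and MuvB complexes, which bind CHR motifs, 5 fell (3 to 6 over the alternative fits, median -0.65). These were led by the activating partners *FOXM1* (-4.72) and *MYBL2* (-5.67), along with the core subunit gene *LIN9* (-2.55).

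Genes that act on the inhibitors were looked at by role. Of 14 genes of the turnover of the inhibitor proteins, 8 fell and 1 rose (median log2 fold change -0.73), and 6 to 9 fell over the alternative fits. With the block, 9 fell and 2 rose. *SKP2*, the ligase subunit that marks p27KIP1 for degradation, went from 10546 to 2470 counts with treatment in BT-16, and from 8967 to 2270 in CHLA-266 (log2 fold change -1.79, edgeR adjusted *p* = 9.41e-05), and its cofactor *CKS1B* fell by 2.16 on the log2 scale (adjusted *p* = 0.00063). *DTL* (-3.53) and *PCNA* (-2.35), which act in the degradation of p21CIP1 on chromatin, fell too. *PCNA* is also on the proliferation list, of which all 17 genes fell, so the lists are not separate. The gene that rose was *FBXW7* (0.58, edgeR adjusted *p* = 0.0190), named after its value was seen. RNA values say nothing about the levels of the inhibitor proteins.

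Of 17 transcriptional activators of CDK inhibitor genes, 4 rose and 4 fell (median log2 fold change -0.14, and 0.20 with upper-quartile normalization). *EGR1* (-3.12), *TP73* (-3.29), and *SP3* (-0.97), a factor that binds GC boxes, had the smallest adjusted *p* values, and all of them fell. The 4 activators that rose were *FOXO1*, *FOXO3*, *KLF4*, and *ETS1*, named after their values were seen, with log2 fold changes from 1.20 to 2.79. Of these, *ETS1* had the lowest counts, from 12 to 95 with treatment in BT-16 and from 16 to 66 in CHLA-266. The part of reads that fall on silent genes in its values was not tested. Of 18 repressors, 8 fell (4 to 10 over the alternative fits) and the other 10 did not pass (median -0.47). The polycomb genes *EZH2* (-2.60, edgeR adjusted *p* = 1.96e-05) and *RNF2* (-1.47, adjusted *p* = 0.000864) and the T-box repressor *TBX2* (-1.03) led this list. Polycomb is known to silence the *CDKN2A*-*CDKN2B* region, of which *CDKN2B* rose and *CDKN2A* fell. *MYC* fell by 0.59 on the log2 scale (adjusted *p* = 0.0289).

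*CDKN1A*, *CDKN2A*, and *CDKN2B* are used as markers of senescence, in which they are usually high together. Of 14 other senescence genes, 4 rose and 3 fell. Their median log2 fold change was 1.19, but it was -0.43 without the treated BT-16 library and 0.28 after *filterByExpr*, the expression filter of edgeR. *LMNB1*, the lamin lost in senescent cells, had 32343 counts before and 664 after treatment in BT-16, and 26942 before and 428 after in CHLA-266 (log2 fold change -5.52, edgeR adjusted *p* = 1.92e-06), and *HMGB1* and *HMGB2* fell too. *LMNB1* and *HMGB2* are also made mainly in dividing cells. Of 13 imprinted growth genes in the table, a list that holds *CDKN1C*, 4 rose (7 with the block) and 1 fell, led by *GRB10* (3.10), *IGF2R* (1.34), and *DLK1* (4.33). *DLK1* had low counts, from 2 to 36 with treatment in BT-16 and from 6 to 103 in CHLA-266. The part of reads that fall on silent genes in these counts was not tested.

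**Figure D5:**
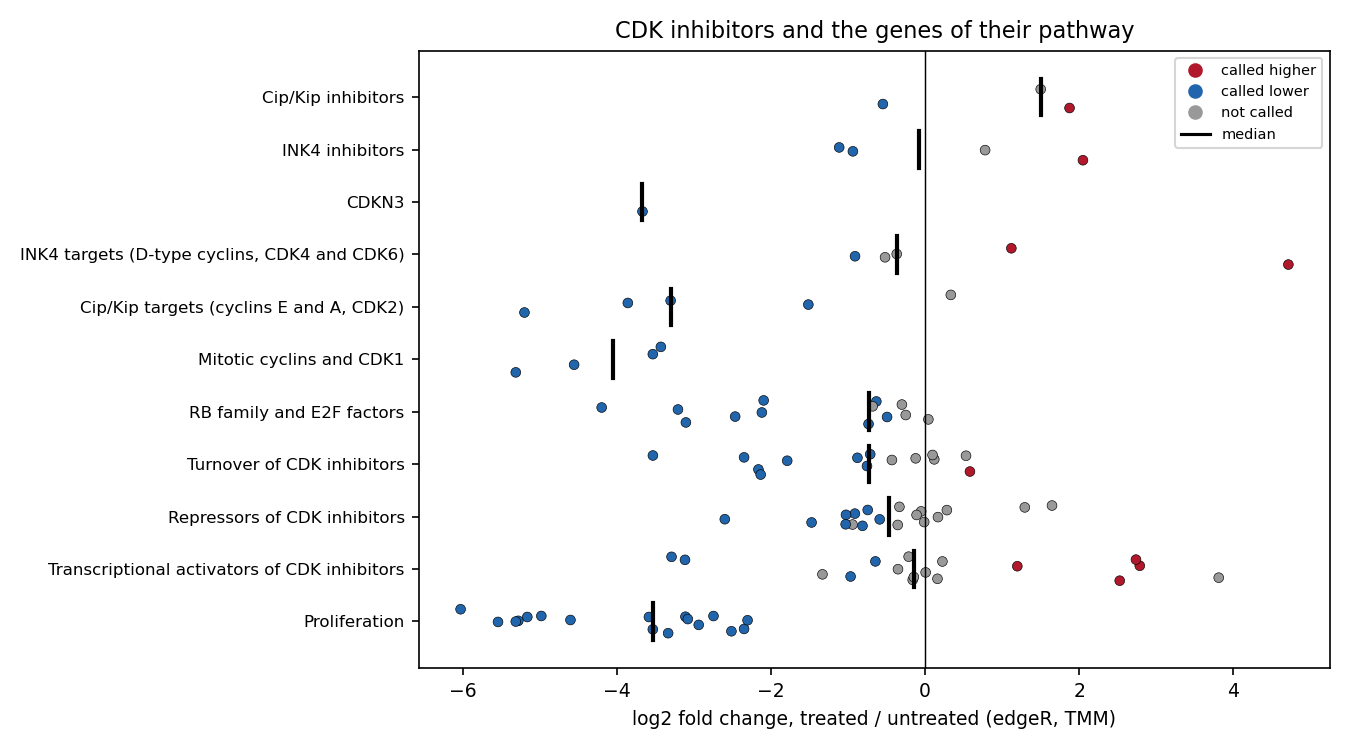
Log2 fold change of treated over untreated (x axis, edgeR with TMM) for the CDK inhibitors and 8 lists of genes around them (y axis), each point 1 gene, colored by its call, with a black bar at the median. The proliferation and mitotic lists lie between -6.03 and -2.30 with *CDKN3* among them.

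The neighbors of the other members differed in direction. *SRSF3*, next to *CDKN1A*, fell (log2 fold change -1.56, edgeR adjusted *p* = 0.00025), while *RAB44* on its other side had 14 to 79 counts and did not pass. *CREBL2*, next to *CDKN1B*, rose (0.70, adjusted *p* = 0.0113), while *APOLD1* on its other side did not pass (0.14, edgeR adjusted *p* = 0.814). *KCNQ1*, next to *CDKN1C*, rose (1.43, adjusted *p* = 0.0458), while *SLC22A18* on its other side did not pass (1.05, edgeR adjusted *p* = 0.261). *FAF1*, next to *CDKN2C*, fell (-0.70, adjusted *p* = 0.0110), while *C1orf185* on its other side had at most 4 counts and did not pass. *KRI1* and *AP1M2* beside *CDKN2D* did not pass, and neither did *BMP4* and *CNIH1* beside *CDKN3*.

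Over the 4 libraries, the genes most like each member were found among the 12620 genes whose count was 10 or more throughout, by the Euclidean distance between centered log2 CPM. The nearest were *VAMP1*, *YPEL5*, and *IKZF2* for *CDKN1A* (distances 0.037 to 0.14), *CD151*, *TTC12*, and *LANCL2* for *CDKN1B* (0.036 to 0.057), and *VIL1*, *CALY*, and *PDGFD* for *CDKN1C* (0.057 to 0.14). For the INK4 genes they were *TBC1D2B*, *BRAT1*, and *TSEN54* (*CDKN2A*), *TAPBPL*, *AOC3*, and *FBXL16* (*CDKN2B*), *IFT56*, *HDDC2*, and *NDOR1* (*CDKN2C*), and *CSAD*, *ARSA*, and *SYT11* (*CDKN2D*). *CDKN3* was nearest to *ITGB3BP*, *PKMYT1*, and *RAC3*, at larger distances (0.17 to 0.31). Among the members, *CDKN2B* and *CDKN3* were farthest apart (6.19). With 4 libraries, many genes share any such pattern.

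The labels of the cells were checked on their markers. *MYC* had 6804 to 14275 and *VIM* 73439 to 120804 counts. *SMARCB1*, the gene whose loss defines AT/RT, had 827 to 1394 counts, which do not show whether a protein is made. *HOXC8* and *HOXC10* had at most 49 counts. Markers of other cell types moved with the treatment at low levels. Of 8 macrophage markers 3 rose, with a summed level of 3.38 to 6.48 CPM before and 9.28 to 10.9 CPM after treatment, and *CD68* had no count in both treated libraries. Of 4 endothelial markers 3 rose (0.747 to 0.957 CPM before and 7.31 to 9.98 CPM after treatment). Of 3 T cell markers 1 rose (at most 1.63 CPM), of 3 neuron markers 2 (14.7 to 16.2 and 22.1 to 23.3 CPM), and of 2 B cell markers 1 (at most 1.54 CPM). With the block, 2 macrophage markers, 0 T cell markers, and 1 neuron marker rose. The part of such cells or reads in the results for the CDK inhibitors was not tested.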

How the data were processed

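RNA of 2 cell lines was sequenced, with 1 untreated and 1 treated library each. The authors deposited estimated counts, that is, reads per gene symbol without normalization, made with *bcl2fastq* (version 2.20), adapter trimming, *STAR* alignment to hg38, and counting per gene, with repeatedly counted and sex chromosome genes removed. Rounding to whole numbers touched 5 values in 2 genes. A second deposited table holds log2 values of 17553 genes after variance stabilization (VST) and served for 1 alternative. Groups came from the treatment label, and all libraries carry the same batch label.

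Of 18449 genes, 383 with a total of 0 were left out. *edgeR* (version 4.0.16, quasi-likelihood test, TMM, R version 4.3.3) was run on all remaining genes, with a common dispersion of 0.140, and was tested on simulated data. The libraries of a cell line are paired by the line itself, and over 12620 genes the deviations of its libraries from the means of their conditions correlated at 0.257. Blocked values stand beside the calls of members and the counts of lists that they change most, and with the block 41.6% of all genes were called. Within-line ratios used 0.5 added counts and exact 95% intervals. Low counts were mostly even (20.5% to 34.2% odd among counts from 1 to 20), so counts were also halved.

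The genes and the 21 lists were chosen with earlier results of these data known, and the lists were written from general knowledge. A further list and 1 gene of another list are not reported here. Named are the members, the 3 genes of smallest adjusted *p* value of each list, partners of the inhibitors, the nearest measured neighbors, and the 3 most similar genes per member. Exon lengths and coordinates come from GENCODE 44. Alternatives were *DESeq2* (version 1.42.0), other normalizations and count filters, *limma* (version 3.58.1) on the VST values, the block, and each library left out. Canonical transcript lengths were added after seeing the data.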

Additional observations from a re-analysis of the deposited data

How the results depend on the processing

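In the comparison of treated and untreated cells, the log2 fold changes of all 8 CDK inhibitor genes kept their direction in the 9 alternative fits and the 4 fits without 1 library. The number of them called higher was 2 in edgeR and 4 with DESeq2, with genes of at least 10 counts in every library, and with upper-quartile normalization, where *CDKN1C* and *CDKN2D* passed as well, and it was 2 to 3 when 1 library was left out. The number called lower was 4, it was 3 in 7 of the 9 alternative fits (without *CDKN1B*), and 3 to 4 when 1 library was left out. With the cell line as a replicate block, which pairs the libraries of a line, 3 genes were called higher and 4 lower. This block changed the call of *CDKN2D* and of no other member, and with the block in DESeq2 *CDKN2D* did not pass. Between the cell lines, 1 gene (*CDKN3*) was called lower in CHLA-266 in edgeR and 0 with DESeq2, with genes of at least 10 counts in every library, and with the condition left out of the model. At an unadjusted *p* value under 0.05, these fits had 1, 2, and 0 genes lower in CHLA-266. The cause of these changes was not tested. Fits of the cell lines that left out 1 library had no residual degrees of freedom and give values without a test, between -1.74 and -0.13 for *CDKN3*. The order of levels per kilobase depends on the length used. Counting depth limits *CDKN1C* most, with 66 counts in each untreated library.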
